A study of Mus musculus with 12 samples.

Results

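The Eph receptors and their ligands, the ephrins, were examined in wild-type mouse autopods, the plates that form hands and feet, at E12.5, setting hindlimb against forelimb. The members were all probe sets annotated to exactly 1 of the genes Epha3, Epha4, Epha7, Efna2 and Efna5 (A class) and Ephb2, Ephb3, Ephb4, Efnb1 and Efnb2 (B class). This gave 26 probe sets of 9 genes out of 45265 probe sets in the series, of which 19 were on the A and 7 on the B array of the Affymetrix MOE430 pair. Of these, 17 belonged to the A class and 9 to the B class, and all 7 on the B array were A class. Ephb2 had no probe set under this rule and was not analysed here.

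There were 3 hindlimb samples (numbered 12, 14 and 26) and 3 forelimb samples (11, 13 and 25), all wild type, each on an A and a B array, 12 arrays in all. The limb of forelimb 11 on the A array rests on the letter in its title, since its tissue label gives no limb. The labels do not say whether a sample is 1 embryo or a pool, so p-values cover no more than the spread among these samples. Values are MAS5.0 signals scaled to 1 trimmed mean per array, and differences are log2 hindlimb minus forelimb of (signal + 32), with n = 3 samples per limb, a scale that understates the change of dim probe sets. Levels were set neither between probe sets nor between the designs, each of which was scaled by itself. The label autopod was checked with Hoxd13, a homeobox gene of the distal limb. Its A array signal was 1918 to 2935 in hindlimb and 1962 to 2876 in forelimb. Prrx1, a homeobox gene of limb mesenchyme, had 2855 to 3189 in hindlimb and 3118 to 3202 in forelimb on its brightest A probe set.

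Eph receptors are receptor tyrosine kinases of the cell surface that are activated by ephrins on a neighbouring cell. A class ephrins are held in the membrane by a lipid (GPI) anchor, while B class ephrins span it and can pass a signal back into their own cell. A class receptors mostly bind A class ephrins and B class receptors mostly bind B class ephrins, with Epha4 known to bind ligands of both classes. In the limb the system is known for guiding motor axons, for sorting and adhesion of condensing mesenchyme, and for keeping arteries and veins apart.

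No Eph or ephrin probe set passed between hindlimb and forelimb. The 20 probe sets above the signal filter were tested, 14 of them on the A array, and 0 had a limma adjusted p under 0.05 on either array. The background was low, as 0.0326% of all tested probe sets passed on the A array and 0.0117% passed on the B array. An unadjusted p under 0.05 was seen for 2 of 14 members on the A array and for 1 of 6 on the B array, where 5.54% of all tested probe sets lay under it on each design. All hindlimb samples lay below all forelimb samples on 2 of 14 A array members, against 6.1% of all tested probe sets, and above them on 1 of 14, against 4.94%. For the B array members this was 1 of 6 below, against 6.14%, and 0 of 6 above, against 4.81%. The size of the differences was close to that of all probe sets. The median absolute log2 difference of the members was 0.105 on the A array, against 0.113 over all tested probe sets, and 0.194 against 0.173 on the B array. Each of the 20 tested members was above the minimum of 100 on all 6 arrays, so none was admitted by 1 limb alone.

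**Figure D1:**
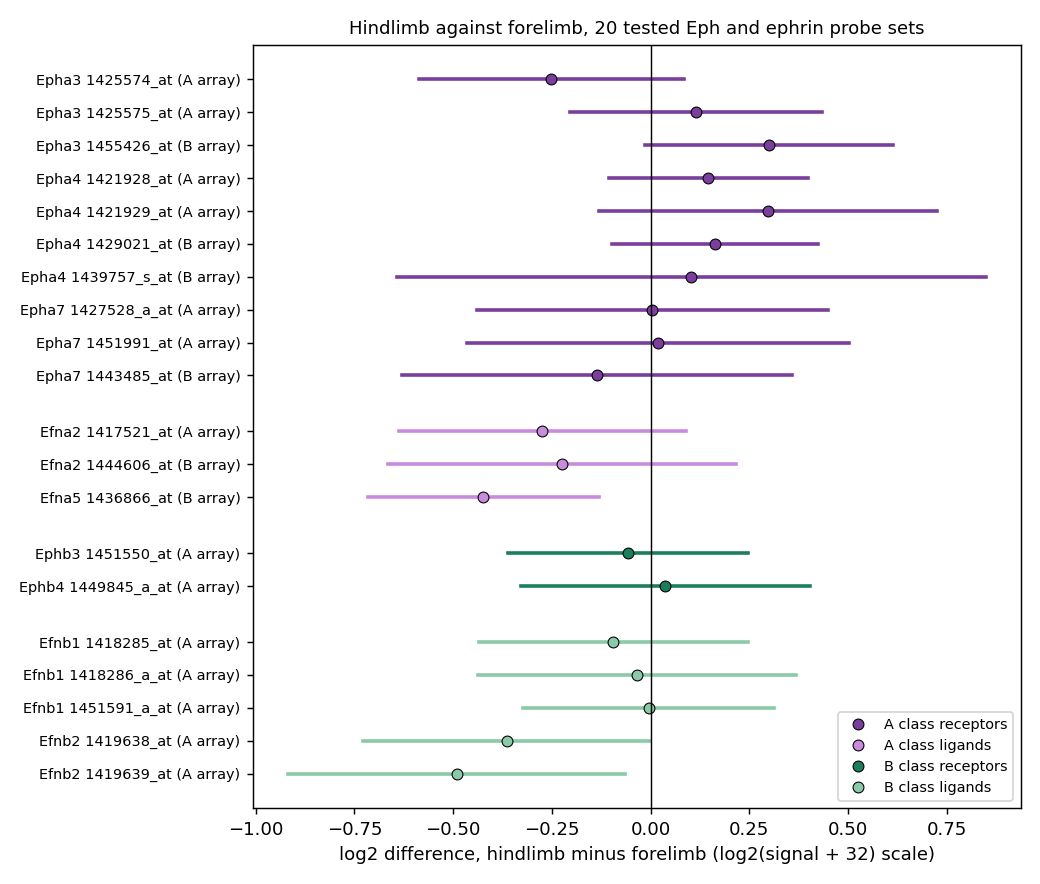
Log2 difference, hindlimb minus forelimb, of the 20 tested Eph and ephrin probe sets (points) with the 95% interval from limma (bars), grouped by class and role. The ligand points all lie left of 0, and the bars of Efna5 and of both Efnb2 probe sets end below 0 (at -0.13, -0.0005 and -0.06), before any adjustment for the number of probe sets.

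The ligands gave the members furthest from 0. All 8 tested ligand probe sets, which stand for 4 genes, had a negative difference, from -0.491 to -0.005, where 52.2% of all tested probe sets were negative on each design; under quantile normalization 1 of them, for Efnb1, turned to 0.019. The receptors had 9 positive and 3 negative differences among 12 probe sets of 5 genes, from -0.252 to 0.300. The 3 Efnb1 probe sets lay close to 0, so the count of ligands rests mainly on Efna2, Efna5 and Efnb2. This count was added after the data were seen. Tested ephrins outside the members, given below, went both ways, from -0.35 for Efnb3 to 0.41 for Efna3 on the B array. Without hindlimb 12, and likewise without forelimb 13, 4 of the 6 ligand probe sets of the A array were negative. In bulk tissue fewer cells of a type and less RNA per cell cannot be told apart, which holds for every difference given here.

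Efna5 encodes ephrin-A5, an A class ligand known to repel axons. On the B array its signals were 2172, 1666 and 2026 in hindlimb 12, 14 and 26, and 2535, 2785 and 2538 in forelimb 11, 13 and 25. All hindlimb samples thus lay below all forelimb samples. The difference was -0.42 ± 0.13 (SE; 95% interval -0.72 to -0.13; limma adjusted p = 0.853), which does not pass over the probe sets of the array. It kept its sign in every alternative setting run, from -0.503 to -0.315. The Efna5 probe set of the A array was below the filter, with 29.4 to 57.6 in hindlimb and 29.6 to 46.4 in forelimb, and so gave no second measurement.

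Efnb2 encodes ephrin-B2, a B class ligand known from arterial endothelium and from mesenchyme. Its probe set 1419639_at had 347, 497 and 366 in hindlimb 12, 14 and 26, and 522, 760 and 474 in forelimb 11, 13 and 25. The limbs overlapped, because hindlimb 14 lay above forelimb 25. The difference of -0.49 ± 0.19 (SE; 95% interval -0.92 to -0.06; limma adjusted p = 0.805) was the largest among the members. It was the only member of 14 beyond the 95th percentile of absolute differences on the A array, 0.408. On 1419638_at the signals were 246, 313 and 362.9 in hindlimb 12, 14 and 26, against 460, 383 and 363.0 in forelimb 11, 13 and 25. Here the limbs were parted only by the gap between hindlimb 26 and forelimb 25. The difference was -0.36 ± 0.17 (SE; 95% interval -0.73 to -0.0005; limma adjusted p = 0.901). The other 2 Efnb2 probe sets were below the filter, with 2 of 6 arrays at the minimum each and differences of -0.34 and -0.08 that were not tested. These 2 probe sets gave no further measurement, as too few of their arrays reached the minimum for a test.

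The promoters of the ligands with the lowest values, Efna5 and Efnb2, are shown with those of Efnb1 and of Ephb4, the known receptor of ephrin-B2, so that the members of the B class ligand and receptor pair can be read side by side. Each is the 250 bases before the gene's start from RefSeq (GRCm38.p6), 5′ to 3′ on the gene's strand. The capitals mark GC boxes (GGGCGG, or CCGCCC on the other strand) and CCAAT boxes (CCAAT, or ATTGG on the other strand). The windows are chr17:62881318-62881567 (minus strand) for Efna5, chr8:8661243-8661492 (minus strand) for Efnb2, chrX:99135811-99136060 (plus strand) for Efnb1 and chr5:137349859-137350108 (plus strand) for Ephb4.
Efna5: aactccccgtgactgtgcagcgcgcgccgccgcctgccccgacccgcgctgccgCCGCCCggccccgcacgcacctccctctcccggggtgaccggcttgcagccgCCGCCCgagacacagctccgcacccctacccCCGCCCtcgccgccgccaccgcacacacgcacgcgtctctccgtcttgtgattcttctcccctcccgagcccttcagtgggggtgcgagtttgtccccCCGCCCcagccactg
Efnb2: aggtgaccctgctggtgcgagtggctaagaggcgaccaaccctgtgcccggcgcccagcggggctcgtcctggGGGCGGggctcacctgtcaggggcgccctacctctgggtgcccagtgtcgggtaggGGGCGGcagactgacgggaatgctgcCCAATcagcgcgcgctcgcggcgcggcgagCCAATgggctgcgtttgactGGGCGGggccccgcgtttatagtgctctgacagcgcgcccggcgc
Efnb1: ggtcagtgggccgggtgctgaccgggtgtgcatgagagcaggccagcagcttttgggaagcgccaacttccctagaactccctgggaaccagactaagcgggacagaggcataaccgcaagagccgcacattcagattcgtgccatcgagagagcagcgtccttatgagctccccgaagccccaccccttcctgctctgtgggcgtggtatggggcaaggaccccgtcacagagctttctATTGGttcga
Ephb4: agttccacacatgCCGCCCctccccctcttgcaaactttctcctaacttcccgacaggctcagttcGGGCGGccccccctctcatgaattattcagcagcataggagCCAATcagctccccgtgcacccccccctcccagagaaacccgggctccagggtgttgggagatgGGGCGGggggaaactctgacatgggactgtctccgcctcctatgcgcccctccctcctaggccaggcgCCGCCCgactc
Efna5 held 4 GC boxes and 0 CCAAT boxes, Efnb2 held 3 and 2, Efnb1 held 0 and 1, and Ephb4 held 4 and 1. Of 32851 promoter windows in the table, 32.7% held a GC box and 33.8% a CCAAT box. The GC content was 74.8% for Efna5, 72.0% for Efnb2, 60.0% for Efnb1 and 64.0% for Ephb4, where the median window had 52.4%. All 10 genes of the rule had a window. A TATA box (TATAAA on either strand; 12.4% of all windows) was found in Efnb2 alone among them. The letters TTTATTG, searched on both strands and known to be bound by the posterior Hox proteins of the autopod, were in 0 of the members' windows and in 4.2% of all windows. A match or its absence says only that these letters are or are not in the window.

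Efna2, which encodes ephrin-A2, was lower on average in hindlimb on both designs, with limbs that overlapped. On the A array it had 208, 246 and 209 in hindlimb 12, 14 and 26, and 233, 260 and 336 in forelimb 11, 13 and 25. Hindlimb 14 lay above forelimb 11, and forelimb 25 was the highest. The difference was -0.27 ± 0.16 (SE; 95% interval -0.64 to 0.09; limma adjusted p = 0.951). On the B array it was -0.22 ± 0.20 (SE; limma adjusted p = 0.929), from 1613, 2155 and 1361 in hindlimb 12, 14 and 26, against 1511, 2337 and 2155 in forelimb 11, 13 and 25. Forelimb 11 was lowest within its limb on both arrays.

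Efnb1 encodes ephrin-B1, a B class ligand whose gene is X-linked and whose loss is known to cause skeletal defects, of the digits among others. Its 3 probe sets gave differences of -0.09 (95% interval -0.44 to 0.25), -0.03 (-0.44 to 0.37) and -0.01 (-0.32 to 0.31), with limma adjusted p of 0.993 to 0.999. On 1451591_a_at the signals were 475, 578 and 595 in hindlimb 12, 14 and 26, and 485, 607 and 562 in forelimb 11, 13 and 25. The spread within each limb was larger than the difference between the limbs. The signs of 1418286_a_at and 1451591_a_at turned when hindlimb 12 or forelimb 13 was left out. That of 1451591_a_at also turned without forelimb 25, to 0.011.

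**Figure D2:**
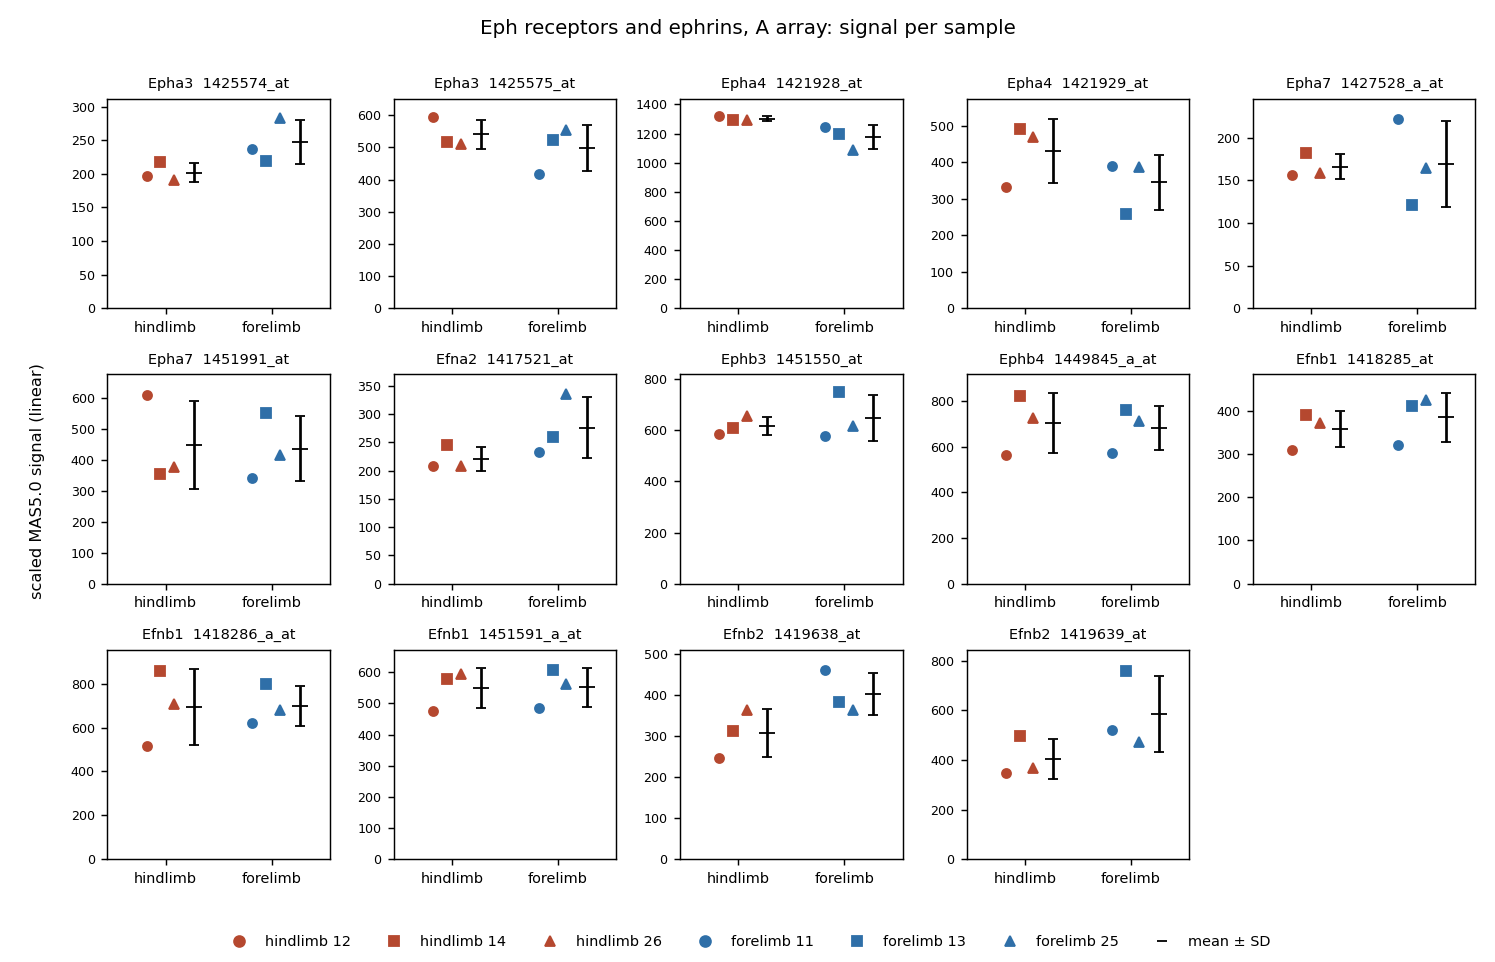
Scaled MAS5.0 signal (linear axis from 0) of the 14 tested members on the A array, with 1 point per sample, hindlimb left of forelimb, and the mean ± SD of 3 samples in black. Efnb2 1419639_at reads 403.5 ± 81.7 in hindlimb and 585 ± 153 in forelimb, while Ephb4 reads 704 ± 131 and 682 ± 97.2.

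Among the A class receptors, Epha4 was the gene whose tested probe sets all had a positive difference. Epha4 encodes a receptor known for steering motor axons within the limb. Its brightest A probe set, 1421928_at, had 1320, 1294 and 1295 in hindlimb 12, 14 and 26, against 1245, 1197 and 1086 in forelimb 11, 13 and 25. All hindlimb samples lay above all forelimb samples, by little. The difference was 0.15 ± 0.11 (SE; 95% interval -0.11 to 0.40; limma adjusted p = 0.964). The second A probe set gave 0.30 ± 0.19 (SE; limma adjusted p = 0.955), with overlapping limbs. On the B array 1429021_at had 5168, 5592 and 4472 in hindlimb 12, 14 and 26, against 4532, 4569 and 4434 in forelimb 11, 13 and 25. Hindlimb 12 and 14 stood above the forelimb samples there, and hindlimb 26 among them. Its difference was 0.16 ± 0.12 (SE; limma adjusted p = 0.924). The probe set 1439757_s_at, of a kind that can match several transcripts, gave 0.10 with a wide interval (-0.64 to 0.85). Its forelimb signals ranged from 239 to 729, and its sign turned without forelimb 13 or hindlimb 14. A last Epha4 probe set on the B array had signals of 4.3 to 8.6 in hindlimb and 4.3 to 11.4 in forelimb and was not tested.

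Epha3, which encodes a receptor with high affinity for ephrin-A5, gave differences of both signs. On 1425574_at the signals were 197, 218 and 191 in hindlimb 12, 14 and 26, and 238, 219.8 and 284 in forelimb 11, 13 and 25. Hindlimb lay below forelimb without overlap, with a narrow gap between hindlimb 14 and forelimb 13. The difference was -0.25 ± 0.15 (SE; limma adjusted p = 0.952). On 1425575_at it was 0.12 ± 0.14 (SE; limma adjusted p = 0.982), with 594, 517 and 511 in hindlimb 12, 14 and 26 against 418, 523 and 555 in forelimb 11, 13 and 25. On the B array 1455426_at gave 0.30 ± 0.14 (SE; 95% interval -0.01 to 0.61; limma adjusted p = 0.904). There Epha3 had 2874, 2559 and 2122 in hindlimb 12, 14 and 26, against 1863, 1994 and 2230 in forelimb 11, 13 and 25. Hindlimb 26 lay below forelimb 25, and the others did not cross. Hindlimb 12 was highest of all samples on both of the last probe sets and was not on the first. Which Epha3 transcripts each probe set measures was not tested. The third A probe set was below the filter, at 58.4 to 83.1 in hindlimb and 57.1 to 78.1 in forelimb.

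Epha7, a receptor known in the mouse to depend on Hoxa13 and Hoxd13 in the autopod, differed between the limbs by less than the spread within them. On 1451991_at of the A array the signals were 609.5, 353 and 377 in hindlimb 12, 14 and 26, and 342, 550.4 and 414 in forelimb 11, 13 and 25. On 1443485_at of the B array they were 1420, 769 and 819 in hindlimb 12, 14 and 26, and 1056, 1243 and 915 in forelimb 11, 13 and 25. Hindlimb 12 and forelimb 13 were the highest samples on both designs. The differences were 0.02 ± 0.22 (SE; 95% interval -0.47 to 0.50; limma adjusted p = 0.999) and -0.14 ± 0.22 (SE; -0.63 to 0.36; adjusted p = 0.959). The probe set 1427528_a_at had another order of samples, 157, 183 and 158 in hindlimb 12, 14 and 26, and 222, 121 and 165 in forelimb 11, 13 and 25. Here forelimb 13 was the lowest of all and forelimb 11 the highest, and the difference was 0.004 (95% interval -0.44 to 0.45). Epha7 is known to make a full-length and a kinase-lacking form, and which of these each probe set reads is not given in the sources used here. The last A probe set, below the filter, had 27.3 to 61.8 in hindlimb and 48.3 to 52.6 in forelimb.

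**Figure D3:**
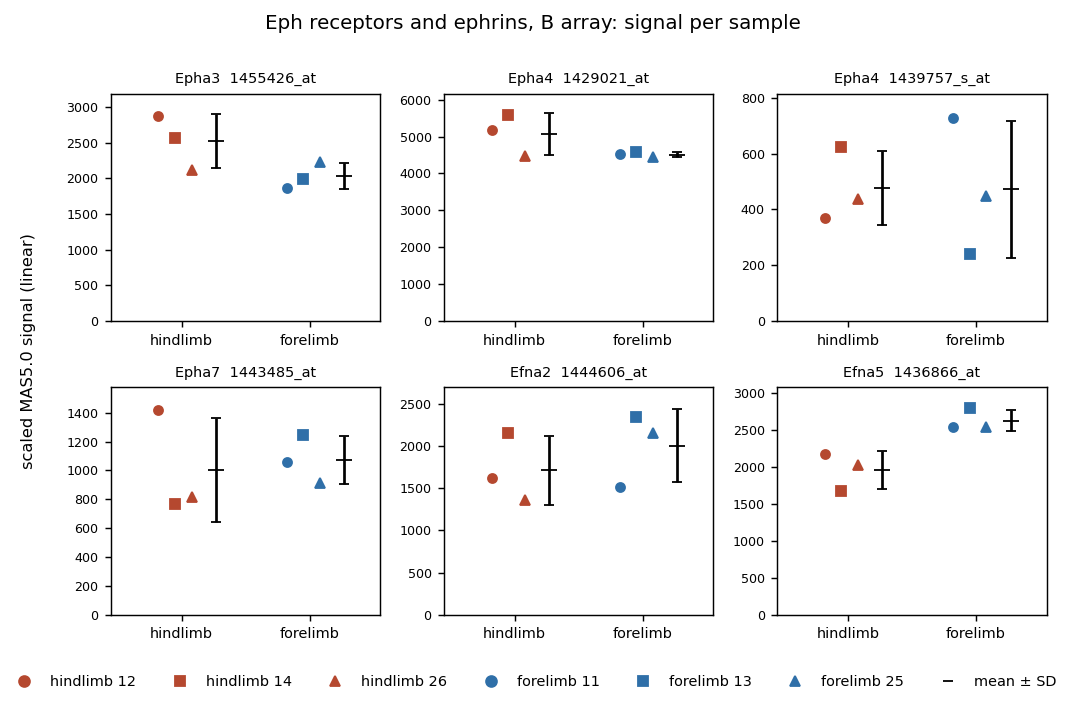
Scaled MAS5.0 signal (linear axis from 0) of the 6 tested members on the B array, all of the A class, with 1 point per sample, hindlimb left of forelimb, and the mean ± SD of 3 samples in black. Efna5 reads 1955 ± 260.3 in hindlimb and 2619 ± 144 in forelimb, without overlap, and Epha7 reads 1002 ± 362 in hindlimb and 1071 ± 165 in forelimb, with hindlimb 12 at the top.

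Both B class receptors lay near 0. Ephb4, known as the receptor of venous endothelium for ephrin-B2, had 564, 823 and 724 in hindlimb 12, 14 and 26, and 572, 758 and 714 in forelimb 11, 13 and 25. The difference was 0.04 ± 0.17 (SE; 95% interval -0.33 to 0.40; limma adjusted p = 0.996). Ephb3, a receptor known from epithelia and from nerve tracts, had 585, 609 and 658 in hindlimb 12, 14 and 26, and 577, 749 and 616 in forelimb 11, 13 and 25. Its difference was -0.06 ± 0.14 (SE; 95% interval -0.36 to 0.25; limma adjusted p = 0.995). The intervals of both genes leave room for a difference of up to 0.40 and -0.36 on the log2 scale, so equal levels are not shown.

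Set against each other on the A array, the classes had medians on either side of 0 and close to it. The 7 tested A class probe sets had a median difference of 0.018, with 5 higher and 2 lower in hindlimb. The 7 B class probe sets had a median of -0.058, with 1 higher and 6 lower. Over all tested probe sets of the A array the median was -0.009. With 1 sample left out the medians ranged from 0.001 to 0.144 in the A class and from -0.155 to 0.046 in the B class, which was positive without forelimb 13 alone. On the B array the 6 A class probe sets had a median of -0.016, against -0.014 over all tested probe sets, with 3 lower and 3 higher. With the brightest A array probe set of each gene, the mean log2 level over the 4 A class genes was 9.23, 9.04 and 9.01 in hindlimb 12, 14 and 26, and 8.93, 9.19 and 9.16 in forelimb 11, 13 and 25. Over the 4 B class genes it was 9.04, 9.48 and 9.29 in hindlimb 12, 14 and 26, and 9.24, 9.64 and 9.34 in forelimb 11, 13 and 25. Hindlimb 12 was highest of all samples in the A class and lowest of all in the B class. No p is given for these class values, since the members were chosen with results known.

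Efnb1, Ephb3 and Ephb4 shared an order of samples that crossed the limbs. On all 5 probe sets of these 3 genes, hindlimb 12 and forelimb 11 were the lowest samples. This order was noticed after the values were seen. It held for 11.3% of all tested probe sets of the A array, and for 0 of the 7 A class members there. Both tested Efnb2 probe sets departed from it in forelimb 11, which was highest on one and among the higher samples on the other. Hindlimb 12 was the lowest of all samples on both of them. Without hindlimb 12 the difference was -0.229 on 1419638_at and -0.399 on 1419639_at. Without forelimb 13 it was -0.394 on 1419638_at and -0.298 on 1419639_at. That last value was the smallest in size for 1419639_at with 1 sample left out. The labels do not say whether neighbouring sample numbers mark a shared litter, day or batch, so this was not tested as a batch. With neighbouring numbers as a block, the smallest limma adjusted p of a member was 0.419, for Efnb2 1419639_at, and 0 members passed.

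**Figure D4:**
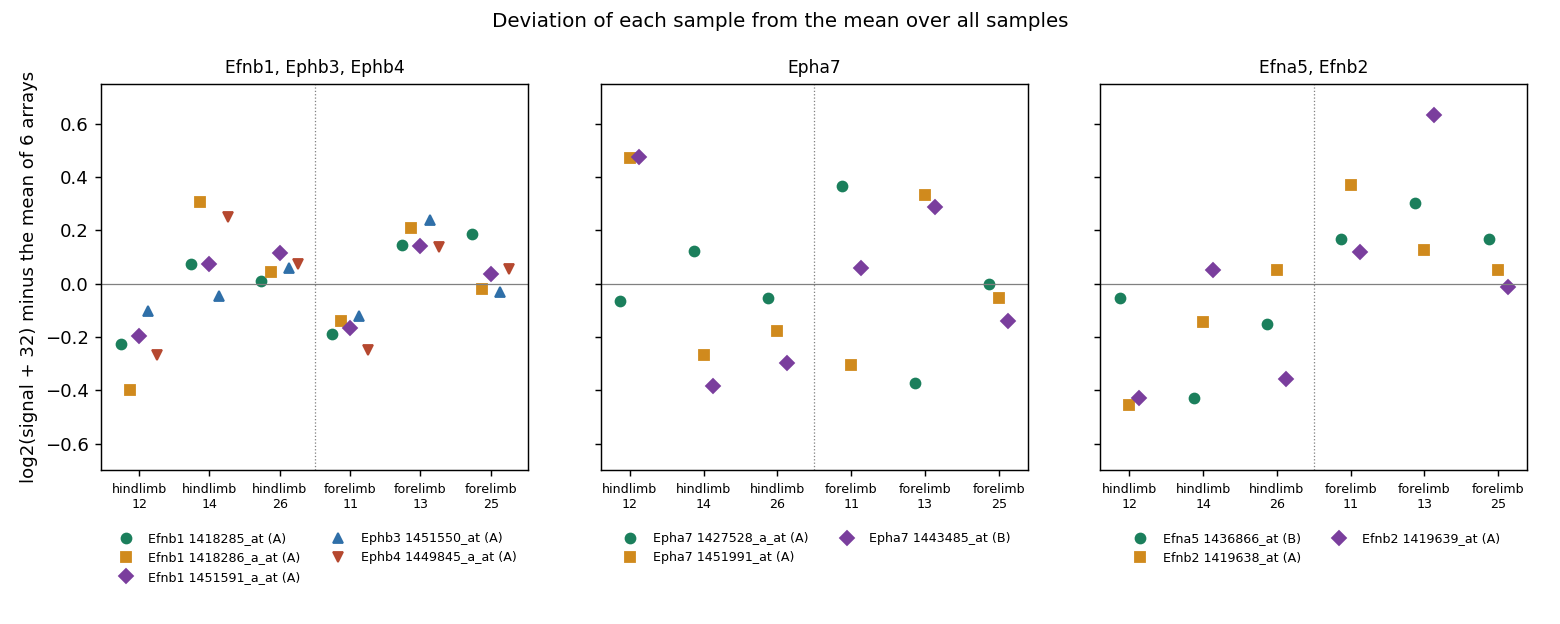
Log2(signal + 32) of each sample minus the mean of the 6 arrays for Efnb1, Ephb3 and Ephb4 (left), Epha7 (middle) and Efna5 and Efnb2 (right), with samples along the x axis, hindlimb left of the dotted line. Hindlimb 12 and forelimb 11 are the lowest on all 5 probe sets of the left panel, hindlimb 12 and forelimb 13 are the highest on 2 of the 3 Epha7 probe sets, and hindlimb lies below forelimb for Efna5.

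The Eph and ephrin genes outside the members had 0 called probe sets among 7 tested on the A array (4 lower and 3 higher in hindlimb, median -0.034) and 3 on the B array (2 lower and 1 higher, median -0.002). Efnb3, the third B class ephrin, had 680, 502 and 692 in hindlimb 12, 14 and 26, and 781, 697 and 927 in forelimb 11, 13 and 25. All hindlimb samples lay below all forelimb samples, with a difference of -0.35 ± 0.16 (SE; limma adjusted p = 0.91). The A class ephrins did not go one way. Efna1 gave -0.29 and 0.01, Efna3 gave -0.07 on its A and 0.41 on its B probe set, and Efna4 gave 0.02, all with overlapping limbs. Among the receptors, Epha2 gave -0.03, Ephb1 -0.002 and Epha5 -0.01 on the B array. A dim Epha5 probe set of the A array gave 0.53 (limma adjusted p = 0.809), with 105 to 115 in hindlimb and 46.8 to 82.7 in forelimb. It passed the filter through the hindlimb samples alone, so its difference is in part set by the filter. Epha1, Epha6, Epha8, Epha10 and Ephb6 were below the filter on every probe set.

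Adaptors, effectors and the shedding protease of Eph and ephrin signalling had 0 called probe sets among 74 tested on the A array (37 genes; 44 lower and 30 higher in hindlimb, median -0.037) and 27 on the B array (17 genes; 12 lower and 15 higher, median 0.013). The smallest p values belonged to Itsn1, Pick1 and Yes1, none of which passed. Itsn1, an exchange factor that acts below B class receptors, gave 0.73 on one B probe set (limma adjusted p = 0.882) and -0.78 on another. Its other tested probe sets lay between these, from -0.14 to 0.30 on the A array and at -0.17 on the B array. Pick1, a PDZ protein that binds Eph receptors and B class ephrins, gave -0.53 on the A array (limma adjusted p = 0.74) and 0.96 on the B array. That B probe set had 141.4 to 248.5 in hindlimb and 55.7 to 128.6 in forelimb. Its hindlimb samples alone were enough for the filter, so the B array difference may in part be set by the filter. Yes1, a Src family kinase, had 499, 464 and 445 in hindlimb 12, 14 and 26, and 340, 304 and 412 in forelimb 11, 13 and 25 on 1 A probe set (difference 0.39 ± 0.14, SE; limma adjusted p = 0.748). Its other tested probe sets gave -0.13 on the A array, and -0.36 and 0.36 on the B array. The probe sets of each of these 3 genes thus disagreed in sign.

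Markers of cell types that are known to make Eph receptors or ephrins are given beside the members. The 11 endothelial genes had a summed A array signal of 6360 to 6782 in hindlimb and 5884 to 6020 in forelimb, without overlap, and a median difference of 0.016 (7 of 16 probe sets lower). That gap came with 1 probe set of Aplnr, the apelin receptor, which had 2030, 2008 and 2164 in hindlimb 12, 14 and 26, and 1204, 1694 and 1632 in forelimb 11, 13 and 25. Without it the limbs overlapped, with sums of 4331 to 4618 in hindlimb and 4327 to 4680 in forelimb. Pecam1, a defining endothelial marker, had 258 to 299 in hindlimb and 293 to 364 in forelimb, and Cdh5 had 307 to 354 in hindlimb and 330.3 to 375 in forelimb on its brighter probe set. On the A array the surface ectoderm genes summed to 4345 to 4914 in hindlimb and 5108 to 6596 in forelimb, without overlap. Krt14 gave -0.83, -0.66 and 0.08 there and Epcam -0.01. Of the 10 tested ectoderm probe sets, 5 were lower and 5 higher in hindlimb, with a median difference of 0.0. Krt5 gave -0.40 and Krt15 -1.38, while Krt8 gave 0.28 and Krt18 0.31, so the list had no common direction there. The forelimb samples of Krt15 alone were enough for the filter, so its difference may in part be set by the filter. On the B array the 2 tested ectoderm probe sets were both lower in hindlimb, with a median of -0.225. Cartilage genes summed to 9567 to 12678 in hindlimb and 11155 to 12570 in forelimb on the A array, with Col2a1 at -0.61 and Acan at -0.72. Of their 9 tested probe sets there, 6 were lower and 3 higher in hindlimb (median -0.27), with Col9a1 at 0.20 and 0.19. On the B array the 2 tested cartilage probe sets were both higher in hindlimb, with a median of 0.199. None of these passed over all probe sets, and no defining marker was at 0. On the A array the muscle precursor genes summed to 895 to 1232 in hindlimb and 1154 to 1284 in forelimb. The Schwann cell and nerve genes summed there to 1256 to 1725 in hindlimb and 1524 to 1612 in forelimb. The log2 ratio of 3′ to 5′ Gapdh signal on the A array, a measure of RNA quality, was -0.299 to -0.263 in hindlimb and -0.239 to -0.078 in forelimb, without overlap. On the B array, which holds Efna5, it was -0.173 to -0.113 in hindlimb and -0.253 to -0.073 in forelimb. The same ratio for Actb overlapped between the limbs on both designs, with 0.222 to 0.270 in hindlimb and 0.118 to 0.261 in forelimb on the A array, and 0.208 to 0.32 in hindlimb and 0.238 to 0.313 in forelimb on the B array. The part of these cell types and of RNA quality in the differences of Efnb2 and Efna5 was not tested.

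Probe sets of other genes that followed the leading members most closely over the 6 arrays of a design were found for 1 member per class and design. For Efnb2 1419639_at these were Cbfa2t3 (Pearson r = 0.994), Cyp3a11 (0.982) and Hdgfl2 (0.979). For Efna5 on the B array they were Taok2 (0.991), Cenpu (0.984) and Gm9918 (0.984), and for Efna2 on the A array Btbd17 (0.992), Rusc1 (0.985) and Me2 (0.979). With 6 points that share their arrays, 18, 30 and 28 tested probe sets of other genes had an r above 0.95 with Efnb2, Efna5 and Efna2, so such values are a description only.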

How the data were processed

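RNA of E12.5 wild-type autopods was measured on Affymetrix MOE430 A and B GeneChips. The deposited values are intensities, linear MAS5.0 signals per the labels (forelimb 11 on the A array lacks this note). The authors had scaled each design to 1 level, with a 2% trimmed mean of 350.1 on the A arrays and 70.0 on the B arrays. Scanner settings and detection calls were not used here.

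Arrays were rescaled to a trimmed mean of 500 (by 1.43 on the A and 7.14 on the B arrays) and expressed as log2(signal + 32). A probe set was tested where at least 3 of 6 arrays reached a signal of 100, control probe sets aside, which left 15338 on the A and 17145 on the B array. The platform annotation gave the symbols, updated by gene identifier through RefSeq (GRCm38.p6). It named 1 gene for 20393 probe sets of the A array, several for 691 and none for 1606, and for 14674, 245 and 7656 of the B array. Each design was fitted alone with limma 3.58.1 under R 4.3.3, as hindlimb minus forelimb, using lmFit and eBayes with trend. P-values were two-sided and adjusted by Benjamini-Hochberg over all tested probe sets of the design, with a threshold of 0.05. The script was tested on simulated data. Tables and figures were made with Python 3.11.15 and matplotlib 3.10.9. Precision is limited by the number of arrays.

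The members and lists were chosen with earlier results of these data known. Every member probe set is given, as is every tested one of the other Eph and ephrin genes. The adaptor list is given by its 3 smallest p values, the cell type lists by sums and defining markers. Settings varied were the pseudocount (1, 100), the filter (none, 200), the normalization (quantile, none beyond the deposited values), the trend, array weights, a block of neighbouring sample numbers, and the removal of each sample.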

Additional observations from a re-analysis of the deposited data

How the results depend on the processing

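No Eph or ephrin probe set passed under any of the 15 alternatives, where the lowest adjusted p of a member was 0.419. Of the 20 tested members 12 kept their sign in all of them, Efna2, Efna5, Efnb2 and Epha3 with all their tested probe sets, Epha4 with 3 of 4 and Efnb1 with 1418285_at. The other 8 turned sign in 20 of the 298 values, and their differences in the report lie between -0.14 and 0.10. With a sample left out, Epha7 1427528_a_at ranged from -0.18 to 0.189, Epha7 1451991_at from -0.213 to 0.189, Epha7 1443485_at from -0.408 to 0.021, Efnb1 1418286_a_at from -0.195 to 0.156, Efnb1 1451591_a_at from -0.09 to 0.091, Ephb3 from -0.133 to 0.046, Ephb4 from -0.079 to 0.181 and Epha4 1439757_s_at from -0.283 to 0.462. Sign also turned for Epha7 1427528_a_at with a pseudocount of 100 (-0.002), for Epha7 1451991_at (-0.022) and Ephb4 (-0.007) with array weights, and for Efnb1 1451591_a_at under quantile normalization (0.019). The 6 negative ligand probe sets of the A array became 4 to 6 with a sample left out; this count and the class medians were added after the data were seen. Over all probe sets the 5 calls of the A array became 1 without the filter, 14 with array weights, 8 with the block and 3 to 9 with a sample left out; the 2 of the B array became 1 without the filter, 0 without the trend (with the trend, 949 lay under an unadjusted p of 0.05), 4 with the block and 1 to 4 with a sample left out. The cause was not tested. The block pairs neighbouring sample numbers (11 with 12, 13 with 14, 25 with 26), and whether these mark a real pairing is not known from the labels.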
